A study of Abies pinsapo with 12 samples.

Results

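The ribosomal L18e/L15P transcripts ap_2470, ap_81623 and ap_26945 are 3 of the 76481 transcripts assembled for Spanish fir (Abies pinsapo). They were taken by ID and chosen by their measured CPM in these same trees, where ap_2470 and ap_81623 went opposite ways. Their differences between trees and between needle colours are therefore given as a description, without a p-value. The permutation p-values below concern library depth, which the choice did not use. All 3 passed the filter of at least 2 CPM (counts scaled to library size, per 1e+06) in at least 2 libraries that left 23352 transcripts. ap_26945 passed through 2 green trees alone, so it could pass only where it was high. Needles were taken from 6 field-grown adult trees of the bluish phenotype and 6 of the green phenotype at 1 locality in Sierra de las Nieves. Developing needles were avoided. Each tree gave 1 library, and no treatment was applied. The trees were wild individuals selected by needle colour, so that colour and the genotype and growing spot of a tree cannot be told apart.

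Proteins of the L18e/L15P family sit in the large subunit of the ribosome, where they pack against ribosomal RNA and help to hold its fold. The family holds cytosolic members as well as the L15 proteins of plastids and bacteria. Ribosomal protein genes are known for high and even transcription in growing tissue, since the subunits are needed in equal numbers. In plants most of these proteins are encoded by several similar genes, and a tree that carries different alleles of a gene can yield more than 1 assembled transcript from it. The description of ap_2470 comes from a Picea sitchensis (Sitka spruce) protein, that of ap_26945 from a Salix viminalis (willow) protein. No description of ap_81623 was held here, and it carries the name under which the transcripts were chosen, so its place in the family is uncertain. The study's gene ontology table lists it under cytosol, gene expression and cellular protein metabolic process. Sequences and lengths of the 3 transcripts were not used here.

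The libraries held between 64978939 and 91973481 counts, and green trees 2 and 5 were the deepest. Both mates of a read pair were counted, so that a count of 0 allowed up to 3 read pairs, or 6 counts. In these libraries that limit was between 0.0695 and 0.0908 CPM, covering counting error only. The extraction protocol in the labels speaks of pine seedling roots, whereas the tissue label says needles. ap_2598 and ap_81338, both RuBisCO small subunit transcripts with a spruce best hit and fixed as needle markers, were found in every library, at 7.70 to 36.0 CPM and 5.63 to 24.2 CPM, respectively. Their levels were 18.7 ± 9.44 and 12.7 ± 6.38 CPM (SD, n = 6) over bluish trees, 12.3 ± 4.28 and 8.86 ± 3.10 CPM over green trees, and highest in bluish tree 2. Their part in the results was not tested. CPM values are scaled with edgeR's TMM factors. In bulk needles, fewer cells of a type and less RNA per cell cannot be told apart.

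ap_2470 and ap_81623 together kept a nearly constant level while each varied widely between trees. In bluish trees ap_2470 was lowest at 20.1 CPM, had a median of 26.7 CPM and was highest at 59.3 CPM in tree 2. In green trees ap_2470 was lowest at 23.9 CPM in tree 1, had a median of 62.2 CPM and was highest at 88.7 CPM in tree 5. The colours overlapped, with bluish tree 2 above 3 green trees. For ap_81623 the bluish trees lay at 30.7 CPM in tree 2 and between 57.5 and 65.7 CPM in the others. The green trees were at 59.6 CPM in tree 1, 31.5 CPM in tree 4, 28.01 CPM in tree 3, 15.2 CPM in tree 6, 1.94 CPM in tree 2 and 1.56 CPM in tree 5. Green tree 1 thus lay among the bluish trees for both transcripts, and bluish tree 2 lay with green trees 3 and 4 for ap_81623. From the lowest to the highest of the 12 trees, ap_2470 differed 4.40-fold and ap_81623 differed 42.2-fold, whereas their sum differed 1.21-fold.

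**Figure D1:**
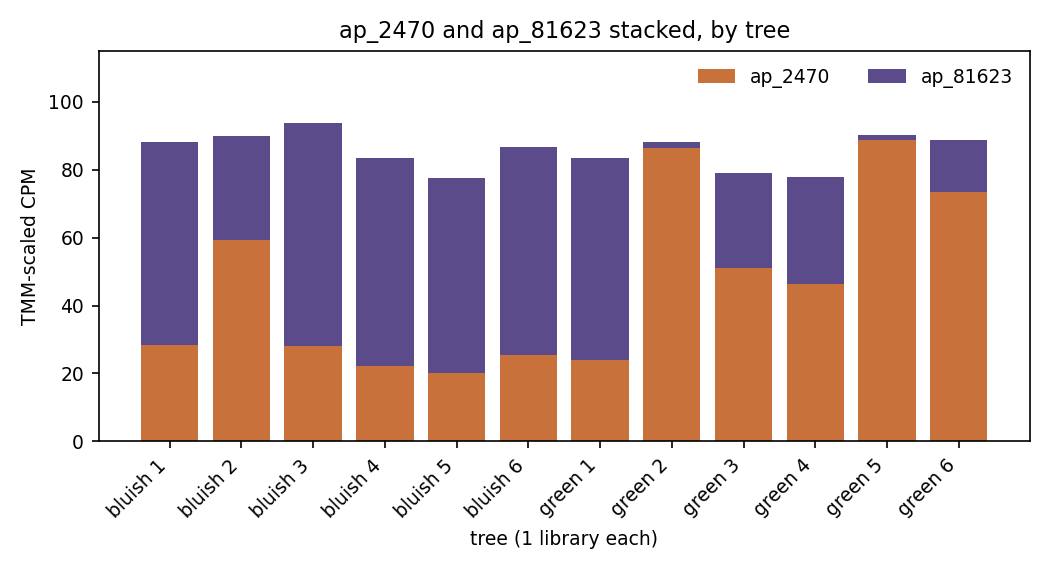
Stacked bars of ap_2470 (orange) and ap_81623 (purple) in TMM-scaled CPM (y axis) in each of the 12 trees (x axis), 1 library per bar. The bars end between 77.6 and 93.7 CPM, and the boundary between the colours lies lowest in bluish tree 5 and highest in green tree 5.

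The sum of ap_2470 and ap_81623 was 86.6 ± 5.56 CPM (SD, n = 6) over bluish trees and 84.6 ± 5.28 CPM (SD, n = 6) over green trees, a difference smaller than the spread between trees of a colour. Bluish tree 5 had the lowest sum at 77.6 CPM and bluish tree 3 the highest at 93.7 CPM. Over the 12 trees the coefficient of variation (CV, SD divided by mean) of the sum was 6.17%, compared with 55.4% for ap_2470 and 61.5% for ap_81623. Of the 3428 transcripts whose mean lay within 2-fold of the sum's mean, 224 (6.53%) had a CV below that of the sum, and their median CV was 11.7%. A CV above that of ap_2470 was found in 37 of these 3428, and above that of ap_81623 in 29. Both transcripts thus varied more than most of these 3428, and their total varied less than most. The pair had been chosen for going opposite ways in these trees, so these places are a description and support nothing. The 3428 were set by the sum's mean of 85.6 CPM, whereas ap_2470 and ap_81623 had means of 46.1 and 39.5 CPM. The mean of ap_81623 lay below that 2-fold range.

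On a linear scale, each CPM of ap_81623 lost between trees went with 1.03 CPM of ap_2470 gained (least-squares slope −1.03, residual SD 5.49 CPM). With each tree left out in turn, it was at its steepest −1.07, without bluish tree 3. The slope within bluish trees was −1.05, and within green trees −1.15. The bluish slope rested on tree 2: among the other 5 bluish trees it was 0.73, with the opposite sign. Among the 23351 other tested transcripts, none was more opposite to ap_2470 than ap_81623 by Pearson's r of log2(CPM + 0.5) over the 12 trees (r = −0.87). By Spearman's rho ap_81623 was at −0.82, and ap_15570 was more opposite at −0.89. The pair had been chosen for going opposite ways in these trees, so its rank is a description and supports nothing. Colour and depth also differed among these 12 trees, and the points fall into groups with gaps between them.

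**Figure D2:**
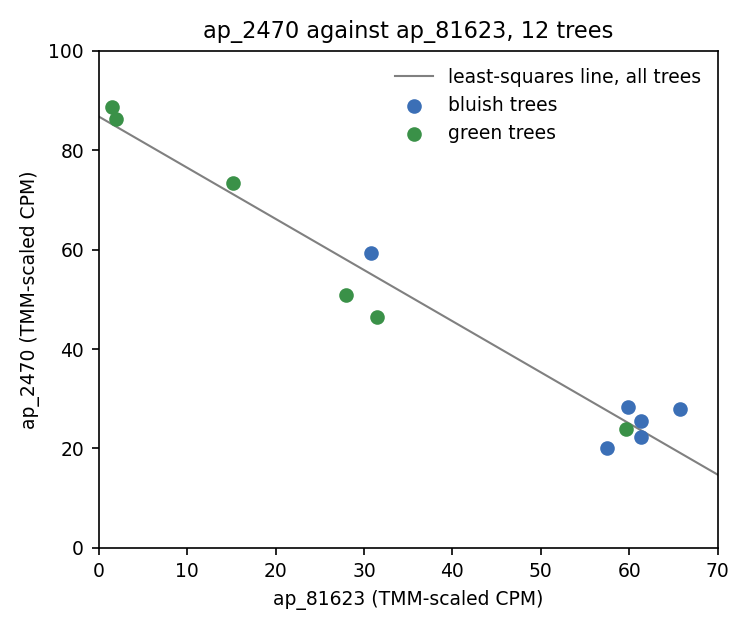
ap_2470 (y axis) against ap_81623 (x axis), both in TMM-scaled CPM, for 6 bluish (blue points) and 6 green trees (green points), with the least-squares line over all 12. The points lie along a line of slope −1.03, with 6 trees at the lower right and green trees 2 and 5 at the upper left.

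As a yardstick for this balance, ap_2470 was added to each of the 12509 other transcripts with a mean of at least 10 CPM, and the CV of each sum was taken. ap_81623 ranked 3 of 12509, which is a description, since the pair was chosen on these values. The sums ahead of it were those with ap_2942 (CV 5.02%) and ap_2368 (CV 5.26%), which had means of 949.8 and 871.8 CPM and own CVs of 5.56% and 4.39%, so that ap_2470 was a small part of them. Among the 5554 partners whose mean was within 2-fold of that of ap_2470, a limit set after seeing the ranks, ap_81623 was rank 1 and the next sum, with ap_70752, had a CV of 12.8%. For ap_81623 as the starting point, ap_2470 ranked 5 of 12509, and 1 of 6091 with the same limit.

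The share of ap_2470 in ap_2470 plus ap_81623 fell into groups of trees separated by wide gaps. If both IDs were versions of 1 gene in a diploid tree with equal output and equal length, shares near 0, 50 and 100% would be the steps. Intervals are exact 95% Clopper-Pearson intervals on 2766 to 3850 read pairs per tree and cover counting error only. The lowest share was found in bluish tree 5 at 25.9% (24.4 to 27.5), followed by bluish tree 4 at 26.6% (24.9 to 28.3) and green tree 1 at 28.6% (27.1 to 30.2). Bluish trees 6, 3 and 1 came next at 29.4%, 29.9% and 32.1%. In this lowest set of 6 trees each interval overlapped that of the neighbour in order, but those of bluish trees 5 and 1 did not overlap. A gap of 27.4 percentage points followed, up to green tree 4 at 59.6% (57.9 to 61.3). Green tree 3 at 64.5% (62.7 to 66.3) and bluish tree 2 at 65.9% (64.2 to 67.5) overlapped each other but not green tree 4. Green tree 6 stood alone at 82.9% (81.5 to 84.3), 17.04 points above bluish tree 2 and 14.9 points below the next tree. The highest were green tree 2 at 97.8% (97.3 to 98.2) and green tree 5 at 98.3% (97.8 to 98.7), whose intervals overlapped.

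Divided at the widest gaps, of 14.9 to 27.4 points, shares stood in 4 places, none of which was near 0%. By the intervals, green tree 4 was also apart from green tree 3, which lay 4.94 points above it. The distance to the nearest of 0, 50 and 100% averaged 15.7 points, with a largest value of 24.1 points in bluish tree 5, where 25 is the farthest a share can lie. For steps of 25 points the mean distance was 5.30 points and the largest 10.5 points, in green tree 3, where 12.5 is the farthest possible. Steps set closer together give smaller distances for any shares, so the smaller mean is not read as a fit to these steps. The interval of a share held one of these 5 steps in 2 of the 12 trees, bluish trees 4 and 5. The levels of ap_81623 alone, a view added after the shares were seen, stood in the same 4 places. Since the sum was nearly constant, these levels largely restate the shares and are no second line of evidence. As a percentage of the highest tree, ap_81623 was at 87.5 to 100% in 6 trees, at 42.6 to 47.9% in green trees 3 and 4 and bluish tree 2, at 23.0% in green tree 6 and at 2.37 to 2.96% in green trees 5 and 2. The 2 lowest, at 133 counts in green tree 5 and 168 counts in green tree 2, were above the 6 counts that a count of 0 allows. ap_2470 had its lowest level at 22.7% of its highest tree. How reads matching both transcripts equally well were assigned is not given in the sources used here, so the split between the 2 IDs is uncertain, whereas a read moved from one to the other leaves their sum as it is. Since lengths were not used, a share of reads is not a share of molecules.

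**Figure D3:**
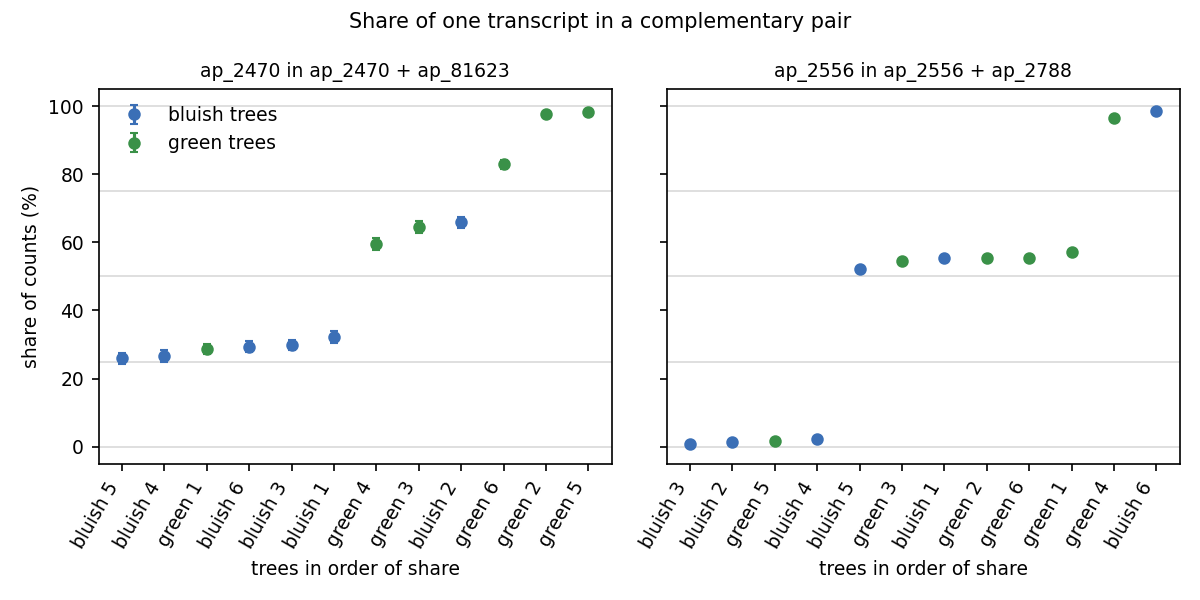
Share of counts in percent (y axis) of ap_2470 in its pair (left) and of ap_2556 in its pair with ap_2788 (right), with trees in order of share (x axis), bluish trees in blue, green trees in green, bars as exact 95% intervals and grey lines at 0, 25, 50, 75 and 100%. The left shares stand at 25.9 to 32.1%, 59.6 to 65.9%, 82.9% and 97.8 to 98.3%, and the right ones at 0.767 to 2.15%, 52.2 to 57.1% and 96.5 to 98.6%.

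For comparison, all pairs among the 291 transcripts with a mean of at least 10 CPM and a CV of at least 50% were summed, with limits set after the pair had been seen. Of these 42195 pairs, 1 had a sum with a CV under 10%, and it was ap_2470 with ap_81623. The next was ap_2556 with ap_2788 (CV 13.4%), at means of 1156 and 1385 CPM. A spruce hexosyltransferase, an enzyme class that moves sugar units, is the best hit of ap_2788, and no description was held for ap_2556. The share of ap_2556 in this pair was 0.767 to 2.15% in 4 trees, 52.2 to 57.1% in 6 trees and 96.5 to 98.6% in 2 trees. The mean distance of its shares to 0, 50 and 100% was 3.40 points, with a largest value of 7.09 points, compared with 15.7 and 24.1 points for the ribosomal pair. The middle shares all lay above 50%. Even the one closest to 50%, in bluish tree 5, had an interval of 51.9 to 52.5%, which did not hold that step. The trees with the lowest shares were not the same: bluish trees 2, 3 and 4 and green tree 5 for ap_2556, of which green tree 5 had the highest share of ap_2470.

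By needle colour, the share of ap_2470 averaged 34.96 ± 15.3% (SD, n = 6) over bluish trees and 72.0 ± 26.7% (SD, n = 6) over green trees, with medians of 29.6% and 73.7%. Of the 6 trees with the lowest shares, 5 were bluish, and the 3 highest were green. The log2 fold change (logFC, bluish minus green) of the fit across all transcripts was −1.01 (SE 0.33) for ap_2470, 1.29 (SE 0.68) for ap_81623 and −4.25 (SE 1.73) for ap_26945. With FDR under 0.05 and a logFC over 1 in size, 0 of the 3 were called by edgeR's quasi-likelihood test, by which 0.00428% of all transcripts were called (1 transcript, ap_23494), and 1478 of the 23352 had an unadjusted p under 0.05. DESeq2 called 0 of the 3 (0.0942% of all), and all 3 were called when 1 common dispersion and the exact test of edgeR were used (1.94% of all). Without green tree 1, which sat among the bluish trees, the logFC of ap_81623 moved from 1.29 to 1.84, and with the tree number as a block it was 2.10, without a call in either.

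The share of ap_2470 was also set against library depth, which the choice of transcripts had not used. Over the 12 trees Pearson's r between the total and the share was 0.53 (permutation p = 0.088, adjusted 0.177 over 2 relations) and Spearman's rho was 0.32 (permutation p = 0.312, adjusted 0.624). The relation rested on green trees 2 and 5, the deepest libraries and those with the highest shares: without them r was −0.08 and rho was −0.16. Within the colours r was 0.36 in bluish trees (exact permutation p = 0.586, n = 6) and 0.30 in green trees (exact permutation p = 0.581, n = 6). For the sum of ap_2470 and ap_81623, r with the total was −0.07 (permutation p = 0.828, adjusted 0.828) and rho was −0.05 (permutation p = 0.888, adjusted 0.888), and without the same trees r was −0.52 (permutation p = 0.127).

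The third L18e/L15P transcript, ap_26945, was at or near 0 in most trees and followed other trees than the pair. It had 174 counts in green tree 1, 170 in green tree 6 and 30 in green tree 4, and 16 counts in bluish tree 4. Bluish tree 2 had 2 counts, below the 6 counts that a count of 0 allows, and the other 7 trees had 0. In CPM this was 2.57 in green tree 6, 2.24 in green tree 1, 0.364 in green tree 4 and 0.241 in bluish tree 4. Green trees 1 and 6 held 88.4% of its summed CPM, so that the difference between colours rested on them. These trees had shares of ap_2470 of 28.6% and 82.9%, far apart in the order of shares, and the trees with the highest shares, green trees 2 and 5, had no count of ap_26945. Added to the pair, ap_26945 changed the sum in no tree by more than 2.57 CPM. Its fitted logFC was −4.25 by edgeR and −4.27 by DESeq2. Among bluish trees it rested on the 16 counts of tree 4 and the 2 counts of tree 2. The edgeR value was −6.91 without bluish tree 4, and without green tree 1 or 6 the transcript did not pass the filter.

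**Figure D4:**
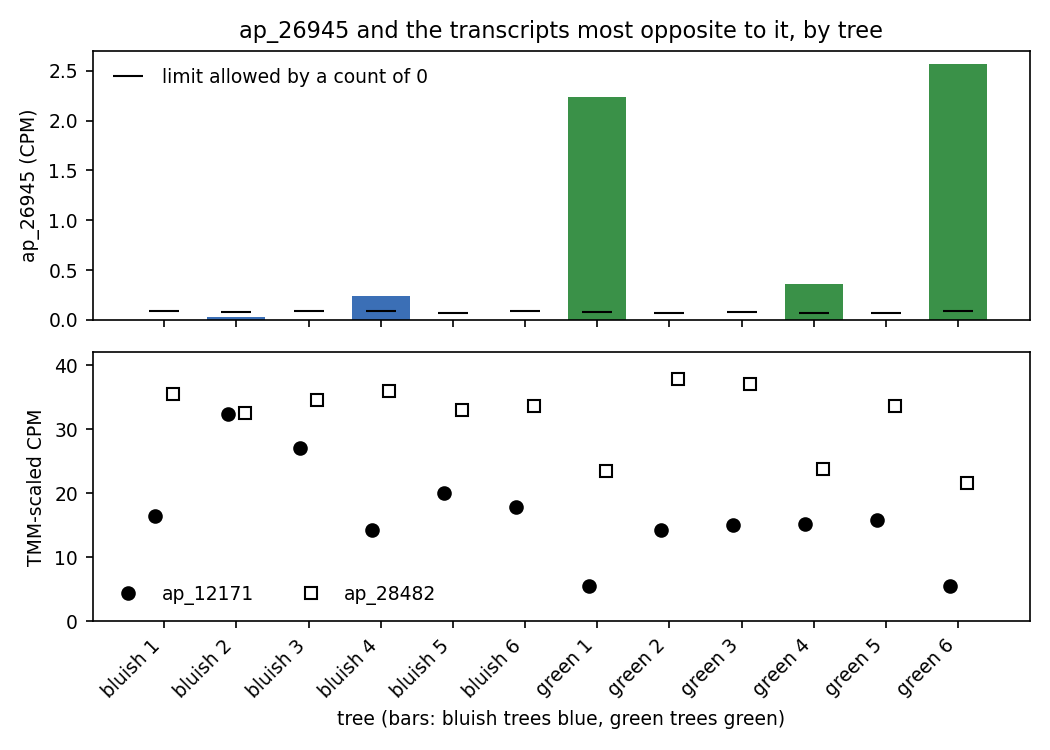
Upper panel: ap_26945 in TMM-scaled CPM (y axis) by tree (x axis), with bluish trees in blue, green trees in green and short lines at the limit allowed by a count of 0. Lower panel: ap_12171 (filled circles) and ap_28482 (open squares) in the same trees and unit. Green trees 1 and 6 are at 2.24 and 2.57 CPM above, and at 5.49 and 5.54 CPM for ap_12171 below.

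Likeness was measured as Pearson's r of log2(CPM + 0.5) over the 12 trees against 23351 transcripts, as a description. With so many transcripts and 12 trees, high values of r also arise among unrelated transcripts. By Spearman's rho, 1 of the 3 most opposite to ap_2470 and 1 of the 3 most like ap_81623 stayed among the 3, and none in the other lists. Most opposite to ap_81623 was ap_3118, an AAI domain-containing protein (a domain known from plant lipid transfer and seed storage proteins), with r = −0.89. It was at 29.0 CPM in green tree 2 and 29.6 CPM in green tree 5, the trees nearly without ap_81623, and between 4.42 and 8.06 CPM in the others. ap_2894 (r = −0.87) was likewise at 96.2 and 91.4 CPM in these trees and between 50.1 and 58.7 CPM in the others. Both therefore set green trees 2 and 5 apart, but not the trees at middle shares, and Spearman's rho with ap_81623 was −0.45 for each.

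Most like ap_81623 was ap_90283 (r = 0.90), without a description, at 0.0695 CPM in green tree 2, 0.0469 CPM in green tree 5 and between 1.02 and 4.64 CPM elsewhere. In those 2 trees it was at or below the limit allowed by a count of 0. ap_12634 (r = 0.87) was at 12.1 CPM in green tree 5, 14.2 CPM in green tree 6 and 15.1 CPM in green tree 2, and between 24.8 and 29.4 CPM in the other 9 trees. The 3 trees low in ap_12634 were the 3 with the highest shares of ap_2470. ap_82600 (r = 0.86) ranged only from 4.42 to 6.55 CPM.

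Most like ap_2470 were ap_5615 (r = 0.88, 7.37 to 10.4 CPM), ap_79555 (r = 0.86, 9.18 to 13.02 CPM) and ap_22841 (r = 0.84, 1.13 to 12.8 CPM). Apart from ap_81623, the most opposite were ap_10666 (r = −0.86, 2.96 to 5.23 CPM) and ap_7072 (r = −0.85, 20.99 to 29.2 CPM). Apart from ap_22841, these differed between trees by less than 2-fold, much less than ap_2470 itself.

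For ap_26945, the most opposite were ap_12171 (r = −0.88) and ap_28482 (r = −0.88), followed by ap_75595 (r = −0.86). ap_12171, whose best hit is a Wollemia nobilis transcript, was at 5.49 CPM in green tree 1 and 5.54 CPM in green tree 6 and between 14.2 and 32.4 CPM in the others. ap_28482 was at 23.5, 23.8 and 21.6 CPM in green trees 1, 4 and 6, the green trees with ap_26945, and between 32.5 and 37.8 CPM in the others, bluish tree 4 included. The most like were ap_8226 (r = 0.83), ap_15503 (r = 0.81) and ap_11529 (r = 0.81), all highest in green trees 1 and 6.

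Of the other transcripts described as ribosomal proteins, 16 were in the part of the study's differential expression list held here. That part is ordered by the study's own test on these trees, so the list is not independent evidence of a direction or of a difference. By edgeR's quasi-likelihood test 0 of the 16 were called (0.00428% of all transcripts), and 13 had a lower and 3 a higher mean level in bluish trees. Of all transcripts tested, 50.9% were lower in bluish trees. Before adjustment 6 of the 16 (37.5%) had p under 0.05 by the same test, beside 6.33% of all transcripts tested. The choice of the list by a test on these trees had raised the number among the 16, so that nothing is read from it. The median logFC of the 16 was −0.86, beside −0.0038 over all transcripts tested. Of the 16, 14 had a mean under 10 CPM, and 10 were highest in green tree 4, a tree in which neither ap_2470 nor ap_81623 was highest or lowest.

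The list's members with a mean of at least 10 CPM were ribosomal protein S4 ap_55972 and ribosomal protein L2 ap_87809, with best hits in Picea glauca and Abies sibirica. S4 is a protein of the small subunit, and L2 lies next to the peptidyl transferase centre of the large subunit. The bluish trees had 35.8 ± 17.3 CPM (SD, n = 6) of ap_55972, and the green trees 22.4 ± 5.59 CPM (logFC 0.67, SE 0.31). For ap_87809 the levels were 18.1 ± 5.48 CPM and 12.3 ± 4.33 CPM (logFC 0.56, SE 0.26). Ribosomal proteins L19 (ap_26629), L13a-2 (ap_31990), L15 (ap_31976) and S6 (ap_60516), of which S6 belongs to the small subunit and the others to the large one, had means of 0.775 to 0.951 CPM over bluish trees and 1.78 to 2.40 CPM over green trees. Their logFC was −1.34 (SE 0.55), −1.33 (SE 0.47), −1.02 (SE 0.49) and −1.33 (SE 0.59), respectively. Best hits were in Araucaria cunninghamii for L19 and S6, in Zea mays for L13a-2 and in Anthurium amnicola for L15. None of the 16 was among the 3 closest or 3 most opposite transcripts of any of the L18e/L15P transcripts. With so few places among 23351 transcripts none would be likely to appear, so nothing is read from this.

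**Figure D5:**
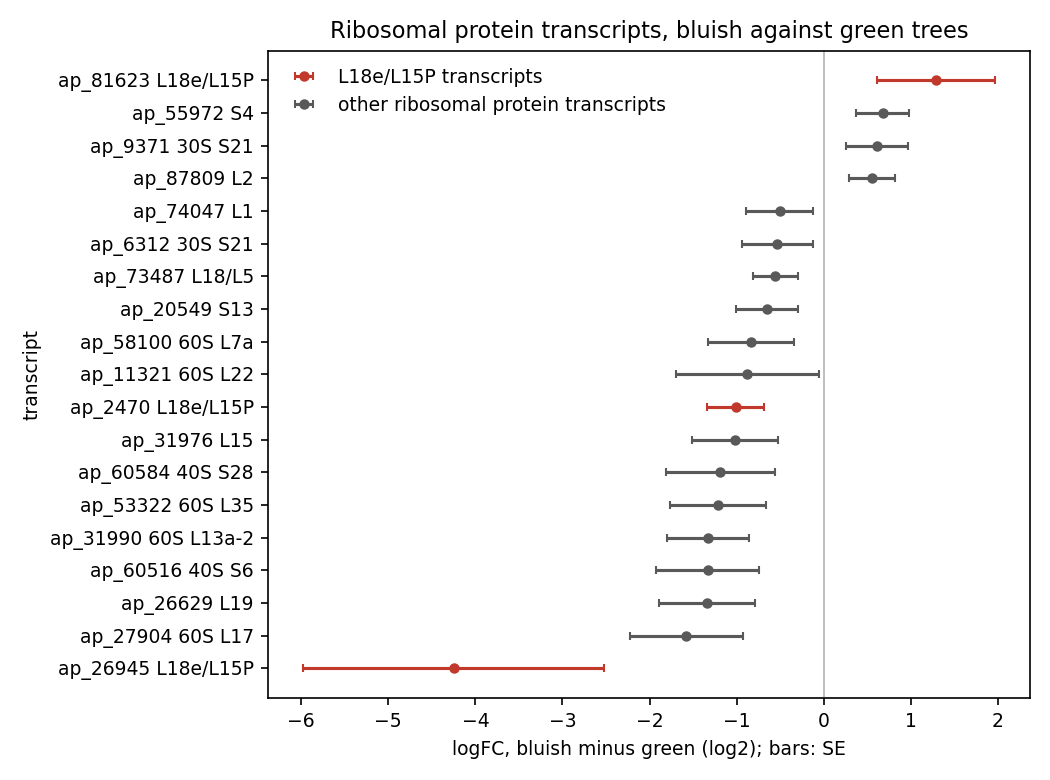
LogFC between bluish and green trees (x axis, log2, positive where bluish trees are higher) with SE bars for the 3 L18e/L15P transcripts (red) and the 16 other ribosomal protein transcripts (grey), listed on the y axis in order of logFC. ap_81623 lies highest at 1.29 and ap_26945 lowest at −4.25, and 13 of the 16 others lie below 0.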

How the data were processed

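Libraries from needles of 6 bluish and 6 green trees were analysed, 1 per tree, and trees were grouped by the colour in the library titles. The deposited values are read counts per assembled transcript, not normalized. The authors trimmed read pairs with SeqTrimBB, assembled them with Trinity, reduced redundancy with CD-HIT-EST, mapped with BWA MEM and counted with sam2counts. Among values of 1 to 29 counts 76.0% were even, so a pair was taken as 2 counts. How CD-HIT-EST was set and how ambiguous reads were counted are not given in the sources used here. Both decide which similar transcripts stay apart and how their reads are split.

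The filter was 2 CPM or more in 2 or more libraries, and the transcripts that passed were compared with edgeR 4.0.16 (quasi-likelihood test, TMM factors, Benjamini-Hochberg adjustment, limma 3.58.1, R 4.3.3). SE is the logFC size divided by the square root of F. The test was checked on simulated counts. Exact permutation tests were used at n = 6, and 100000 permutations otherwise, two-sided. Python 3.11.15, numpy 2.4.6, pandas 2.3.3, scipy 1.17.1 and matplotlib 3.10.9 were used.

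The members and lists were chosen with earlier results of these data known. The transcripts named are the 3 members, the 3 most and least alike to each, the sums of lowest CV, the needle markers, and of the other ribosomal proteins those with a mean of at least 10 CPM or named in the study's text. ap_2556, ap_2788, ap_70752, ap_3242, ap_34676, ap_15570, ap_17677, ap_15677 and ap_23494 were chosen after their values were seen. Alternatives were no scaling factors, RLE factors, other filters, DESeq2 1.42.0, an exact test with a common dispersion, a block for the tree number and each tree left out in turn.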

Additional observations from a re-analysis of the deposited data

Results flagged for a closer look

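Within the 6 bluish trees, tree 2 stood far from the others for 3 of the measures. Its ap_2470 level was 59.3 CPM, where the next bluish tree was at 28.3 CPM, its ap_81623 level was 30.7 CPM, where the next lowest was at 57.5 CPM, and its share of ap_2470 was 65.9%, where the next was 32.1%. These are 1 event counted on 3 related measures, on values by which the transcripts had been chosen. For ap_26945, bluish tree 4 stood apart at 0.241 CPM (16 counts), with the next bluish tree at 0.0268 CPM (2 counts). Each of these gaps was large against the range of the 6 trees (Dixon's criterion). In all, 4 of 26 groups of 6 trees met it. Chance gives about 1 in 20, but since the values had served to choose the transcripts, the number of such gaps is a description and supports nothing. None of the green groups met it, and the sum of ap_2470 and ap_81623 did not meet it in either colour.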

How the results depend on the processing

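The edgeR count of DE transcripts was 1. It was 3 with filterByExpr, 22 with DESeq2, 453 with the exact test and a common dispersion, and 0 with the tree number as a replicate block, where 1412 transcripts had an unadjusted p under 0.05. With each tree left out it was between 1 and 2, the latter without bluish tree 4 or green tree 6. Same-numbered trees did not vary together (correlations of their deviations between −0.14 and 0.11), so no shared effect of the number was seen. These correlations cannot show whether the trees were sampled as pairs. The logFC kept its sign for all 3 members under every alternative that gave a value. Leaving out each tree, it lay between −1.31 and −0.87 for ap_2470, between 1.04 and 1.84 for ap_81623 and between −6.91 and −3.98 for ap_26945. The mean sum lay between 85.2 and 88.4 CPM in bluish trees and between 83.4 and 85.9 CPM in green trees, and the mean share between 28.8 and 36.8% and between 66.7 and 80.6%. With CPM on library totals ap_81623 was partner 5 rather than 3 of ap_2470. By linear r, and by the CV of sums with means within 2-fold (added after seeing the data), ap_81623 was partner 1 of ap_2470 and ap_2470 partner 1 rather than 5 of ap_81623. The closest transcripts depended on the measure: by Spearman's rho ap_15570 (−0.89) was more opposite to ap_2470 than ap_81623. For ap_26945, differences among the trees with 2 counts or 0 were not detectable at this depth.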

Other observations

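On a linear CPM scale, a measure added after the data were seen, ap_26945 was most like ap_17677 (r = 0.92), an epimerase domain-containing protein, and ap_15677 (r = 0.91), a CBFD/NFYB/HMF domain-containing protein of the kind found in CCAAT-binding factors, both with spruce best hits. ap_17677 was at 41.7 CPM in green tree 6 and 26.7 CPM in green tree 1, and between 3.61 and 15.6 CPM in the other 10 trees. ap_15677 was at 9.61 CPM in green tree 6 and 9.87 CPM in green tree 1, and between 3.44 and 6.22 CPM in the others. All 3 transcripts were therefore highest in the same 2 green trees, while ap_17677 also reached 15.6 CPM in green tree 2, which had no count of ap_26945.

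With the lower limit for the CV of single transcripts set at 30% instead of 50%, 1135 transcripts formed 643545 pairs, of which 30 had a sum with a CV under 10%. ap_2470 with ap_81623 had the lowest of these at 6.17%, and ap_3242 with ap_34676 the next at 7.15%. With so many pairs, low sums occur among transcripts with no stated relation, and the limits were set after the ribosomal pair had been seen, so the rank describes these 12 trees and is no test.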
